A study of Homo sapiens with 32 samples.

Results

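The 10 genes described here belong to the endoplasmic reticulum (ER) protein folding machinery and were followed by RNA sequencing in human breast cell lines exposed to hypoxia and to an mTOR inhibitor. They were HSPA5 (BiP), HSP90B1 (GRP94), DNAJB9 (ERdj4), DNAJC3 (p58IPK), XBP1, HERPUD1, SDF2L1, PDIA4, CALR (calreticulin) and CANX (calnexin). They were taken by symbol, as the 10 rows of these names among the 19815 protein-coding rows of the 60554 rows in each of the 2 deposited count tables. The libraries came from MCF10A, an immortalised, non-tumorigenic mammary epithelial line, and from MDA-MB-231, a metastatic triple-negative breast cancer line. The question put to these samples was how total mRNA (T) and mRNA bound to polysomes (P), the fraction carrying several ribosomes, changed when the cells lost oxygen and mTOR signalling. Each line had 16 libraries in 8 groups of 2 biological replicates.

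Each line received 4 treatments. N was normoxia. H was hypoxia at 0.5% O2 for 24 h. NPP was normoxia with 2.5 µM PP242, an inhibitor of the mTOR kinase active site, for 3 h. HPP was hypoxia of the same strength and length with PP242 at the same dose and time. Per the study's methods, control cells received the solvent of PP242, dimethyl sulphoxide. The lines were grown in different media, and each was deposited as its own table, so line, medium and sequencing set cannot be told apart. T and P libraries that share a treatment and number came from the same culture. Total counts per library ranged from 18340916 to 46032327 (median 34561484), of which 97.4% to 99.2% were protein-coding, and individual members had between 235 counts (SDF2L1) and 97572 counts (HSP90B1) in a library.

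The ER folds secreted and membrane proteins. HSPA5 is its abundant Hsp70 chaperone, HSP90B1 its Hsp90, and DNAJB9, DNAJC3 and SDF2L1 work with HSPA5. CALR and CANX are lectin chaperones that hold newly glycosylated proteins, PDIA4 is a disulphide isomerase, and HERPUD1 is a membrane component of ER-associated degradation. When unfolded proteins accumulate, the sensors IRE1, PERK and ATF6 start the unfolded protein response (UPR): IRE1 excises a short intron from XBP1 mRNA so that it encodes an active transcription factor, PERK phosphorylates eIF2α and slows translation, and ATF6 is cut to release another transcription factor. ATF6 and spliced XBP1 act on promoters that hold ER stress elements. PERK signalling is also a known part of the response of cells to low oxygen.

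The ER stress elements are shown because ATF6 and spliced XBP1 act on promoters that hold them. In the window searched, 7 of the 10 members held one of either form. RefSeq promoters (GRCh38.p14, 250 bases before to 50 bases after each transcription start) were found for all 10 members, and both strands were searched. The ER stress element, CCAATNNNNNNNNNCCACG, was present in the promoters of 5 of the 10 members, and in 27 of 35116 promoters in the table (0.0769%). Counted by gene, 25 of 27305 held it (0.0916%). The lines below give the element in capitals with 5 bases on either side, 5′ to 3′ on the strand that carries it.
HSPA5, chr9:125241386-125241414, minus strand, 66 to 48 bases before the start: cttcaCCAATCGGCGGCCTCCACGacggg
HSP90B1, chr12:103930211-103930239, plus strand, 194 to 176 bases before the start: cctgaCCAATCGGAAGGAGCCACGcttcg
HSP90B1, chr12:103930316-103930344, minus strand, 89 to 71 bases before the start: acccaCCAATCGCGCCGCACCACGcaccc
CALR, chr19:12938379-12938407, minus strand, 225 to 207 bases before the start: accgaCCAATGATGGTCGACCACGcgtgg
CANX, chr5:179698773-179698801, plus strand, 151 to 133 bases before the start: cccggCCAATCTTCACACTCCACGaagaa
XBP1, chr22:28800598-28800626, minus strand, 52 to 34 bases before the start: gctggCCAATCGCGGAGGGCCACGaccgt
The HSP90B1 and CANX elements lie before RefSeq starts that are inside the wider gene spans of GENCODE v44 (chr12:103930107-103953931 and chr5:179678628-179731641).

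ER stress element II, which is ATTGG and CCACG with any 1 base between them, was present in the promoters of 2 other members and in 19 promoters of the table (0.0541%). Counted by gene, 19 of 27305 held it (0.0696%). The element is shown with 9 bases on either side.
HERPUD1, chr16:56932016-56932044, plus strand, beginning 117 bases before the start: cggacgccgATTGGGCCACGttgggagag
SDF2L1, chr22:21642105-21642133, minus strand, beginning 188 bases before the start: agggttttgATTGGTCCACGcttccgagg
The UPR element, TGACGTGG, was in 256 promoters (0.729%) and in none of the 10. DNAJB9, DNAJC3 and PDIA4 held none of these letters in this window, which says nothing of other windows or other factors. A match in a promoter is a description of the sequence and not a measurement of binding. Whether the members held more of these elements than other genes was not tested.

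The intron that IRE1 removes from XBP1 mRNA is 26 bases long and lies at chr22:28796128-28796153 on the minus strand. It is an intron of one annotated XBP1 transcript and lies within an exon of another. It is printed in capitals where the annotation places it, with 2 bases on each side, and a placement 1 base further towards the 3′ end leaves the same spliced sequence.
XBP1 intron: ccGCAGCACTCAGACTACGTGCACCTCTgc
The deposited values were summed over each gene, so spliced and unspliced XBP1 mRNA could not be separated, and every XBP1 value below is the sum of both. In GENCODE v44 (GRCh38) XBP1 spans chr22:28794555-28800597 on the minus strand, with 6 exons in its reference transcript. HERPUD1 spans chr16:56932142-56944864 on the plus strand (8 exons), and SDF2L1 chr22:21642302-21644299 on the plus strand (3 exons). DNAJB9 lies at chr7:108569867-108574850 on the plus strand, also with 3 exons, and HSPA5 at chr9:125234853-125241382 on the minus strand with 8.

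The labels were checked before the members were compared. CA9, a target of the hypoxia-inducible factors, was at 577 to 1539 CPM (a gene's counts relative to the scaled total of its library) in the 8 hypoxic MCF10A libraries and at 8.86 to 29.1 CPM in the normoxic ones, and at 11.1 to 31.0 against 0.0476 to 0.917 CPM in MDA-MB-231. VEGFA, another such target, was at 52.3 to 253 against 6.81 to 41.9 CPM in MCF10A, and its hypoxic and normoxic libraries overlapped in MDA-MB-231 (204 to 369 against 135 to 261 CPM). Of the H and HPP comparisons with N, VEGFA was called only for HPP in polysomal mRNA of MCF10A (log2FC 1.84, adjusted p = 0.0358). The basal keratins KRT5 (1407 to 3838 CPM) and KRT14 (542 to 4936 CPM) were abundant in MCF10A and had at most 20 counts in a MDA-MB-231 library. The epithelial cadherin CDH1 and the basal factor TP63 were near 0 in both lines. CDH1 had 0 to 16 counts in the MCF10A libraries and TP63 had 0 to 10. The mesenchymal marker VIM was at 1832 to 11297 CPM in MCF10A and 2736 to 5384 CPM in MDA-MB-231, while ZEB1 was at 5.35 to 37.4 CPM and 38.5 to 79.1 CPM. The libraries labelled MCF10A therefore carried keratin mRNA with CDH1 and TP63 near 0.

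Some MCF10A libraries stood apart from their groups. NPP T replicate 2 had a TMM factor (a scaling factor for library composition) of 0.764, and N P replicate 1 had 0.808. Genes with reference transcripts shorter than 1000 bases lay at a median of 0.73 log2 units above their mean over libraries in both of these libraries, and at 0.68 above it in H P replicate 1 and 0.69 below it in HPP P replicate 2. In MDA-MB-231 the same measure stayed between -0.36 and 0.36. SDF2L1, with a reference transcript of 825 bases, is the single member under 1000 bases. Called results of the members that rest on these libraries are therefore given with and without them. Results of all other genes, among them the pathway lists and markers below, are given only with these libraries included.

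All 10 members passed the filter on low counts in both lines. Summed over the 10 genes, they took 0.331% and 0.419% of protein-coding counts in the N polysomal libraries of MCF10A, 0.411% and 0.500% in H, 0.567% and 0.540% in NPP, and 0.603% and 0.734% in HPP. The MDA-MB-231 polysomal libraries gave 0.417% and 0.372% in N, 0.443% and 0.412% in H, 0.541% and 0.480% in NPP, and 0.554% and 0.550% in HPP. In total mRNA the shares ran from 0.229% (MCF10A NPP replicate 2) to 0.457% (MDA-MB-231 HPP replicate 1). In polysomal mRNA both NPP and both HPP libraries of each line lay above both N libraries, whereas the groups of total libraries overlapped in MCF10A. A sum follows its most abundant members, such as HSP90B1, and XBP1 and SDF2L1 went down under HPP on MCF10A polysomes. The 0.331% is from N replicate 1, which stood apart. These are bulk samples, in which fewer cells of a type and less RNA per cell cannot be told apart.

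**Figure D1:**
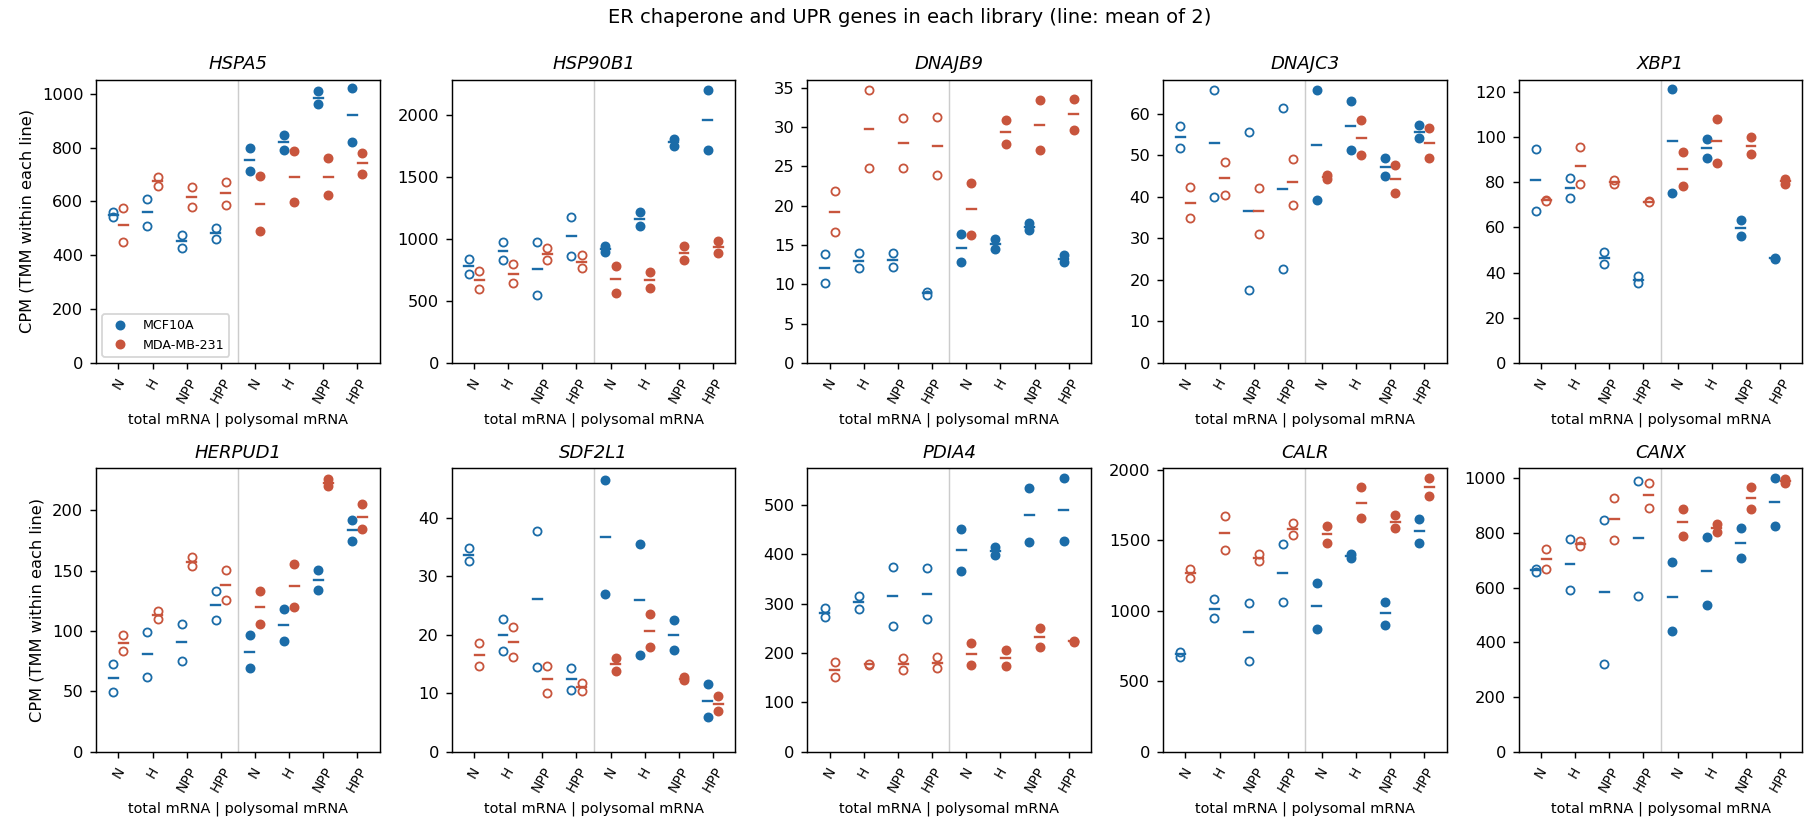
CPM (y axis, linear from 0, scaled by TMM within each line) of the 10 genes in every library, by treatment (x axis), with open symbols for total and filled symbols for polysomal mRNA, blue for MCF10A and red for MDA-MB-231, and a dash at the mean of 2 replicates. HSP90B1 in polysomal MCF10A mRNA goes from 892 and 939 in N to 1715 and 2200 in HPP, and total XBP1 in MCF10A goes from 94.6 and 67.4 to 35.2 and 38.4.

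Levels were compared between genes as CPM per kilobase of the reference transcript. In normoxic total mRNA of MCF10A, CALR was the most abundant member at 363 CPM per kilobase, followed by HSP90B1 at 280, HSPA5 at 141, CANX at 135, PDIA4 at 101.8, XBP1 at 45.2, SDF2L1 at 40.9, HERPUD1 at 21.4, DNAJC3 at 9.73 and DNAJB9 at 4.99. CALR ranked 196 of 13068 genes with a length, and DNAJB9 ranked 6948. XBP1 and SDF2L1 were the neighbours in this order whose libraries overlapped. In MDA-MB-231 the same scale gave CALR 665, HSP90B1 241, CANX 144, HSPA5 131, PDIA4 60.2, XBP1 40.2, HERPUD1 31.6, SDF2L1 20.1, DNAJB9 7.99 and DNAJC3 6.89. There the libraries of CANX and HSPA5 overlapped, as did those of DNAJB9 and DNAJC3. On polysomes CALR led as well, at 542 (MCF10A) and 810 (MDA-MB-231) CPM per kilobase. The abundant chaperones and lectins thus lay above the cochaperones in both lines.

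**Figure D2:**
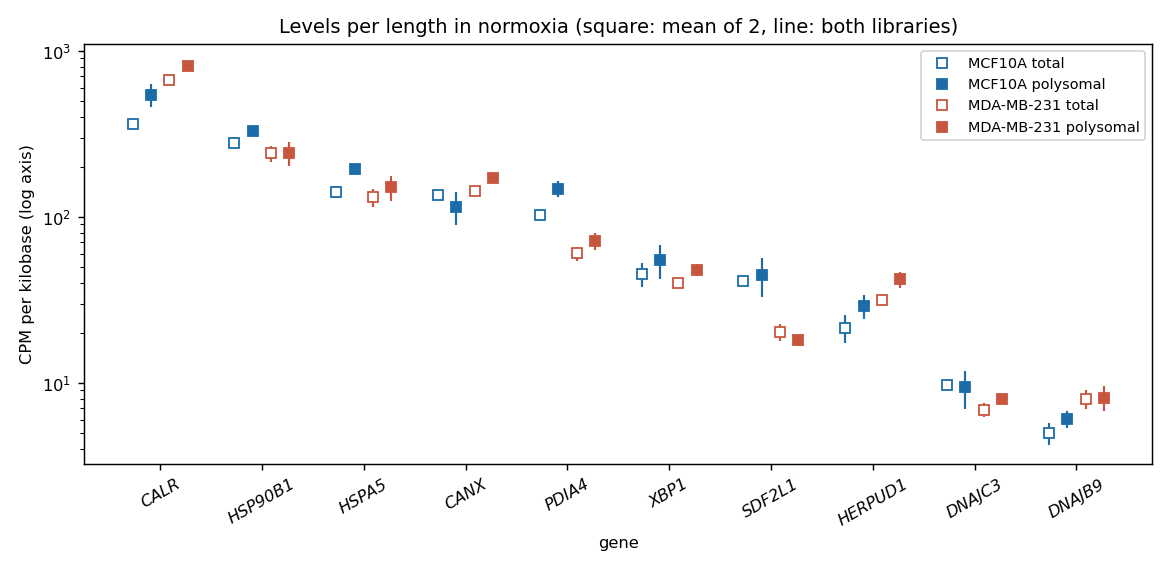
Level of each gene in normoxia, as CPM per kilobase of reference transcript (log axis), by line and fraction; the square is the mean of 2 libraries and the line spans both. CALR leads in both lines (363 and 665 in total mRNA), and DNAJB9 and DNAJC3 are lowest.

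In normoxia no member was called for a difference between polysomal and total mRNA. A call here is an adjusted p (Benjamini-Hochberg over all tested genes) below 0.05 in the quasi-likelihood test of edgeR. The log2 ratio of P to T (log2FC) ran from -0.23 (CANX) to 0.58 (CALR) in MCF10A with a median of 0.28, and from -0.15 (SDF2L1) to 0.41 (HERPUD1) in MDA-MB-231 with a median of 0.23. It was positive for 8 and 9 of the 10 genes. Over all genes, 0% were called in MCF10A and 13.1% in MDA-MB-231. At an unadjusted p under 0.05 the members numbered 0 in MCF10A and 2 in MDA-MB-231, HERPUD1 and CALR, and DESeq2 called 0 and those same 2. Of all genes, 1660 of 13124 in MCF10A and 3955 of 13510 in MDA-MB-231 passed that unadjusted threshold. Every log2FC is relative to the average mRNA of its own fraction, so a loss of polysomes that all mRNAs shared would not show in it. The p-values rest on the spread between the 2 cultures of a group, pooled over all groups of a fit and drawn towards that of other genes. With 2 against 2 a permutation test could not reach 0.05.

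Hypoxia alone called none of the 10 genes in either line or fraction. HSPA5 in total mRNA of MCF10A was at 561 and 541 CPM in N and at 509 and 609 CPM in H, a log2FC of 0.02 (95% interval -0.41 to 0.46). In MDA-MB-231 it was at 576 and 451 CPM in N and at 656 and 692 CPM in H, a log2FC of 0.39 (0.02 to 0.77, adjusted p = 0.419). The groups overlapped in MCF10A and did not in MDA-MB-231. The 10 genes had a median log2FC in total mRNA of 0.08 for MCF10A and 0.24 for MDA-MB-231. All 10 were positive in the cancer line and ran from 0.09 (PDIA4) to 0.62 (DNAJB9). In polysomal mRNA the medians were 0.12 and 0.20. DNAJB9, a cochaperone that hands misfolded proteins to HSPA5, had the largest of these values in MDA-MB-231, with 21.8 and 16.7 CPM in N and 24.8 and 34.7 CPM in H in total mRNA (adjusted p = 0.239).

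Background calls for hypoxia were few. Of all tested genes, 1.54% were called in total and 1.49% in polysomal mRNA of MCF10A, and 1.27% and 2.29% in MDA-MB-231. The edgeR count of members at an unadjusted p under 0.05 was 0 in both fractions of MCF10A, 2 in total and 1 in polysomal mRNA of MDA-MB-231. DESeq2 called 0 in all 4. Of all genes, edgeR gave 1426 (total) and 1636 (polysomal) of 13124 at that threshold in MCF10A. In MDA-MB-231 it gave 1712 and 2327 of 13510.

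**Figure D3:**
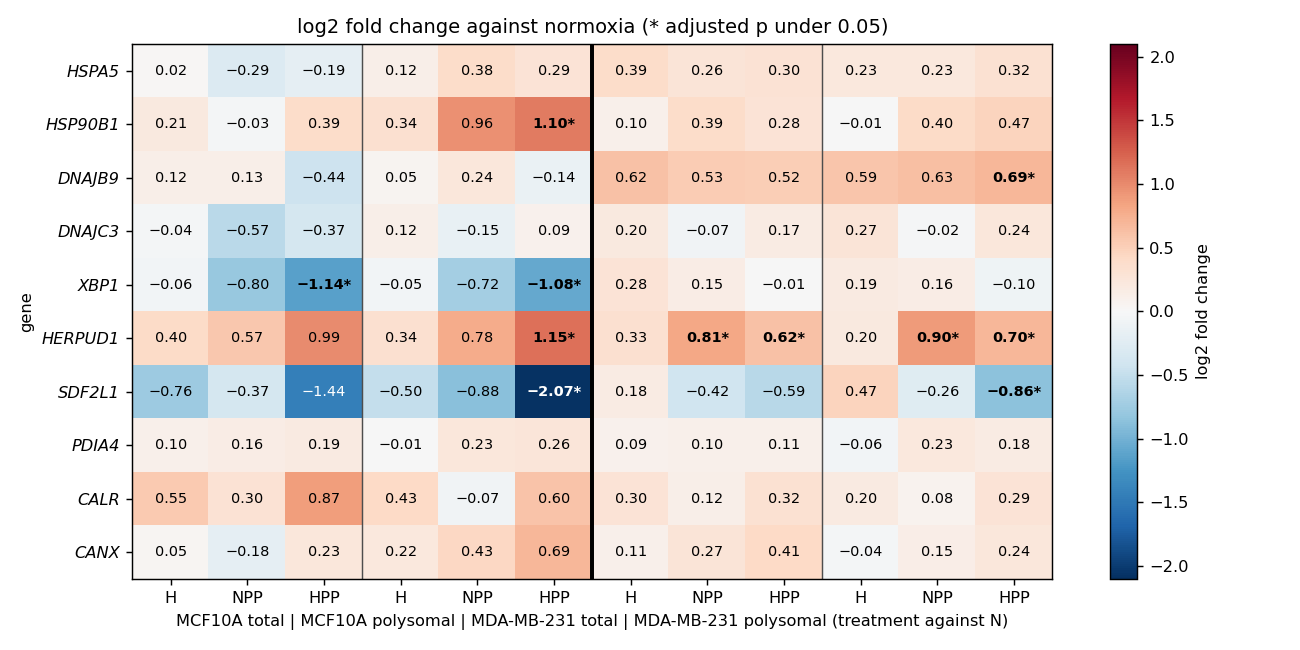
Log2 fold change against normoxia (colour scale) of the 10 genes (rows) under H, NPP and HPP in each fraction and line (columns), with an asterisk for an adjusted p below 0.05. H carries no asterisk, NPP carries asterisks for HERPUD1 in MDA-MB-231, and HPP carries them for XBP1, HERPUD1, SDF2L1, HSP90B1 and DNAJB9.

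With PP242 in normoxia HERPUD1 rose in MDA-MB-231 and no other member was called. In total mRNA HERPUD1 was at 96.8 and 83.3 CPM in N and at 161 and 154 CPM in NPP. The groups did not overlap, and the log2FC was 0.81 (SE 0.16, adjusted p = 0.0375, edgeR). In polysomal mRNA it was at 133 and 105.8 CPM in N and at 220 and 226 CPM in NPP, a log2FC of 0.90 (SE 0.16, adjusted p = 0.00703). The member called was 1 of 10 in each fraction, where 0.555% of all genes were called in total and 1.95% in polysomal mRNA. The rise in total mRNA was not called when any of the 4 libraries was left out (adjusted p 0.0953 to 0.463), and that in polysomal mRNA was not called without N replicate 2 (0.137), NPP replicate 1 (0.0653) or NPP replicate 2 (0.0677). The other 9 members lay between -0.42 (SDF2L1) and 0.53 (DNAJB9) in total and between -0.26 (SDF2L1) and 0.63 (DNAJB9) in polysomal mRNA.

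The MCF10A libraries gave no call with NPP, against 0.648% of all genes in total and 0.823% in polysomal mRNA. HSP90B1 in polysomal mRNA was at 892 and 939 CPM in N and at 1806 and 1750 CPM in NPP. The libraries did not overlap, and the log2FC of 0.96 had an adjusted p of 0.174 (0.92 and 0.564 without N replicate 1, which stood apart). With a replicate block within each fraction HSP90B1 was called there (0.96, adjusted p = 0.0401). HERPUD1 there had a log2FC of 0.78 (adjusted p = 0.284) and XBP1 one of -0.72 (adjusted p = 0.219). All 10 members lay between -0.88 (SDF2L1) and 0.96 in polysomal mRNA, and between -0.80 (XBP1) and 0.57 (HERPUD1) in total mRNA. At an unadjusted p under 0.05 edgeR gave 1 member in total mRNA and 3 in polysomal mRNA, and DESeq2 called 0 and 1 (HSP90B1). Of all 13124 genes, 1252 in total and 1752 in polysomal mRNA passed that threshold in edgeR. NPP total replicate 2, one of the libraries that stood apart, was low for DNAJC3 (17.5 against 55.5 CPM in replicate 1), CANX (320 against 848 CPM) and HSP90B1 (547 against 974 CPM).

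Hypoxia and PP242 together gave the most calls among the members. In polysomal mRNA of MCF10A HSP90B1 and HERPUD1 rose while XBP1 and SDF2L1 fell, 4 of 10 against 22.2% of all genes called. In polysomal mRNA of MDA-MB-231 HERPUD1 and DNAJB9 rose and SDF2L1 fell, 3 of 10 against 19.4%. In total mRNA XBP1 fell in MCF10A, 1 of 10 against 14.9%, and HERPUD1 rose in MDA-MB-231, 1 of 10 against 13.2%. Same-numbered total libraries of MCF10A deviated together (r 0.28 to 0.78 over all 6 pairs of treatments), and with a replicate block within each fraction 4 of 10 were called there, HERPUD1 (0.95, adjusted p = 0.0362), SDF2L1 (-1.47, adjusted p = 0.0054) and CALR (0.85, adjusted p = 0.0250) beside XBP1. The same block gave 3 of 10 in total mRNA of MDA-MB-231, SDF2L1 (-0.58, adjusted p = 0.0342) and CANX (0.41, adjusted p = 0.0272) beside HERPUD1. The shares of 14.9% and 13.2% came from the fit without a block and are no background for these blocked counts. The median log2FC over the 10 genes was 0.27 in polysomal mRNA of MCF10A (range -2.07 to 1.15) and 0.26 in that of MDA-MB-231 (range -0.86 to 0.70). The median of all tested genes lay between -0.07 and 0.06 in every comparison. The called members thus moved in both directions. All comparisons with N in a line and fraction share the same N libraries.

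HERPUD1, which helps assemble the ER degradation complex, rose under HPP on polysomes of both lines. In polysomal mRNA of MCF10A it was at 96.4 and 69.2 CPM in N and at 175 and 192 CPM in HPP. The groups did not overlap, and the log2FC was 1.15 (SE 0.31, adjusted p = 0.0219). In polysomal mRNA of MDA-MB-231 it went from 133 and 105.8 CPM to 205 and 184 CPM, a log2FC of 0.70 (SE 0.16, adjusted p = 0.00798). In total mRNA the log2FC was 0.99 in MCF10A (adjusted p = 0.0535) and 0.62 in MDA-MB-231 (SE 0.16, adjusted p = 0.0220), where libraries of 96.8 and 83.3 CPM in N stood against 151 and 126 CPM. The HERPUD1 call in MCF10A polysomes was lost without any of its 4 libraries (log2FC 0.93 to 1.48, adjusted p 0.0519 to 0.118). In MDA-MB-231 the polysomal call was lost without HPP replicate 1 (0.0814) or N replicate 2 (0.0856), and the total call without HPP replicate 1 (0.123), N replicate 1 (0.0514) or N replicate 2 (0.171).

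SDF2L1, a partner of HSPA5 and its J-domain cochaperones, fell on polysomes in both lines. In MCF10A it was at 46.5 and 27.1 CPM in N and at 11.6 and 5.89 CPM in HPP, a log2FC of -2.07 (SE 0.52, adjusted p = 0.0157). In MDA-MB-231 it was at 16.1 and 13.8 CPM in N and at 6.88 and 9.51 CPM in HPP, a log2FC of -0.86 (SE 0.23, adjusted p = 0.0183). Neither pair of groups overlapped. In total mRNA the log2FC was -1.44 in MCF10A (32.6 and 34.8 against 10.6 and 14.3 CPM, adjusted p = 0.0819) and -0.59 in MDA-MB-231 (14.7 and 18.5 against 10.3 and 11.7 CPM, adjusted p = 0.105). SDF2L1 and HERPUD1, the members with ER stress element II in their promoters, were thus called in opposite directions.

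Transcript length moved with the SDF2L1 result. The tested genes with transcripts under 1000 bases had a median polysomal log2FC under HPP of -0.75 in MCF10A and -0.36 in MDA-MB-231. After an offset for transcript length was fitted in each library, SDF2L1 was still called in polysomal mRNA, at a log2FC of -1.44 in MCF10A (adjusted p = 0.000322) and -0.56 in MDA-MB-231 (adjusted p = 0.042). Its call was lost in MCF10A without HPP replicate 2 (-1.66, adjusted p = 0.144) or N replicate 1 (-1.57, adjusted p = 0.127), and in MDA-MB-231 without HPP replicate 1 (-0.63, adjusted p = 0.175) or N replicate 1 (-0.76, adjusted p = 0.0881).

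XBP1, the transcription factor gene of the IRE1 arm, fell in MCF10A. In total mRNA it was at 94.6 and 67.4 CPM in N and at 35.2 and 38.4 CPM in HPP, a log2FC of -1.14 (SE 0.26, adjusted p = 0.0128). In polysomal mRNA it was at 121 and 75.5 CPM in N and at 46.6 and 46.2 CPM in HPP, a log2FC of -1.08 (SE 0.26, adjusted p = 0.0121). Both HPP libraries lay below both N libraries in each fraction. In MDA-MB-231 the total libraries were at 72.1 and 71.7 CPM in N and at 71.6 and 71.3 CPM in HPP, a log2FC of -0.01 (95% interval -0.29 to 0.27), and the polysomal log2FC was -0.10 (-0.37 to 0.18). Without N replicate 1 the MCF10A values were -0.87 in total (adjusted p = 0.129) and -0.63 in polysomal mRNA (adjusted p = 0.200), and the XBP1 calls were also lost without HPP replicate 1 (0.112 in total and 0.0532 in polysomal mRNA) or HPP replicate 2 (0.0861 and 0.0819).

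HSP90B1, the Hsp90 of the ER, rose on polysomes of MCF10A. It was at 892 and 939 CPM in N and at 1715 and 2200 CPM in HPP, and the log2FC was 1.10 (SE 0.31, adjusted p = 0.0249). In total mRNA of MCF10A the groups were 839 and 718 against 1179 and 863 CPM (log2FC 0.39, adjusted p = 0.442). In polysomal mRNA of MDA-MB-231 they were 784.5 and 563 against 888 and 981 CPM (log2FC 0.47, adjusted p = 0.0836, and 0.49 with adjusted p = 0.0426 under a replicate block within each fraction). The HSP90B1 call was lost without HPP replicate 2 (log2FC 0.91, adjusted p = 0.161), N replicate 1 (1.14, adjusted p = 0.105) or N replicate 2 (1.13, adjusted p = 0.0760).

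DNAJB9 rose on polysomes of MDA-MB-231. It was at 22.9 and 16.3 CPM in N and at 33.6 and 29.6 CPM in HPP, a log2FC of 0.69 (SE 0.22, adjusted p = 0.0418). The call was lost without HPP replicate 1 (adjusted p = 0.211), HPP replicate 2 (0.0971) or N replicate 2 (log2FC 0.45, adjusted p = 0.283). In MCF10A the DNAJB9 libraries of N and HPP overlapped in polysomal mRNA, at 16.4 and 12.9 against 12.8 and 13.7 CPM.

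The 5 members not called under any treatment in the fit of all 16 libraries without a block were HSPA5, DNAJC3, PDIA4, CALR and CANX. HSPA5, the usual marker of UPR activity, had a polysomal log2FC under HPP of 0.29 in MCF10A (95% interval -0.15 to 0.72; 798 and 713 against 822 and 1023 CPM) and 0.32 in MDA-MB-231 (-0.05 to 0.70; 693 and 491 against 702 and 780 CPM). PDIA4 gave 0.26 (-0.27 to 0.79) and 0.18 (-0.13 to 0.49). DNAJC3, which restrains PERK, gave 0.09 (-0.95 to 1.12) and 0.24 (-0.12 to 0.59), with the widest interval of these in MCF10A. The lectins lay on the positive side. CALR in total mRNA had a log2FC of 0.87 in MCF10A (adjusted p = 0.0722) and 0.32 in MDA-MB-231, and CANX one of 0.41 in total mRNA of MDA-MB-231 (adjusted p = 0.0582). The intervals of HSPA5 thus reach to a rise of 0.72 or 0.70 log2 units, and being somewhat narrow they do not bound it there.

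**Figure D4:**
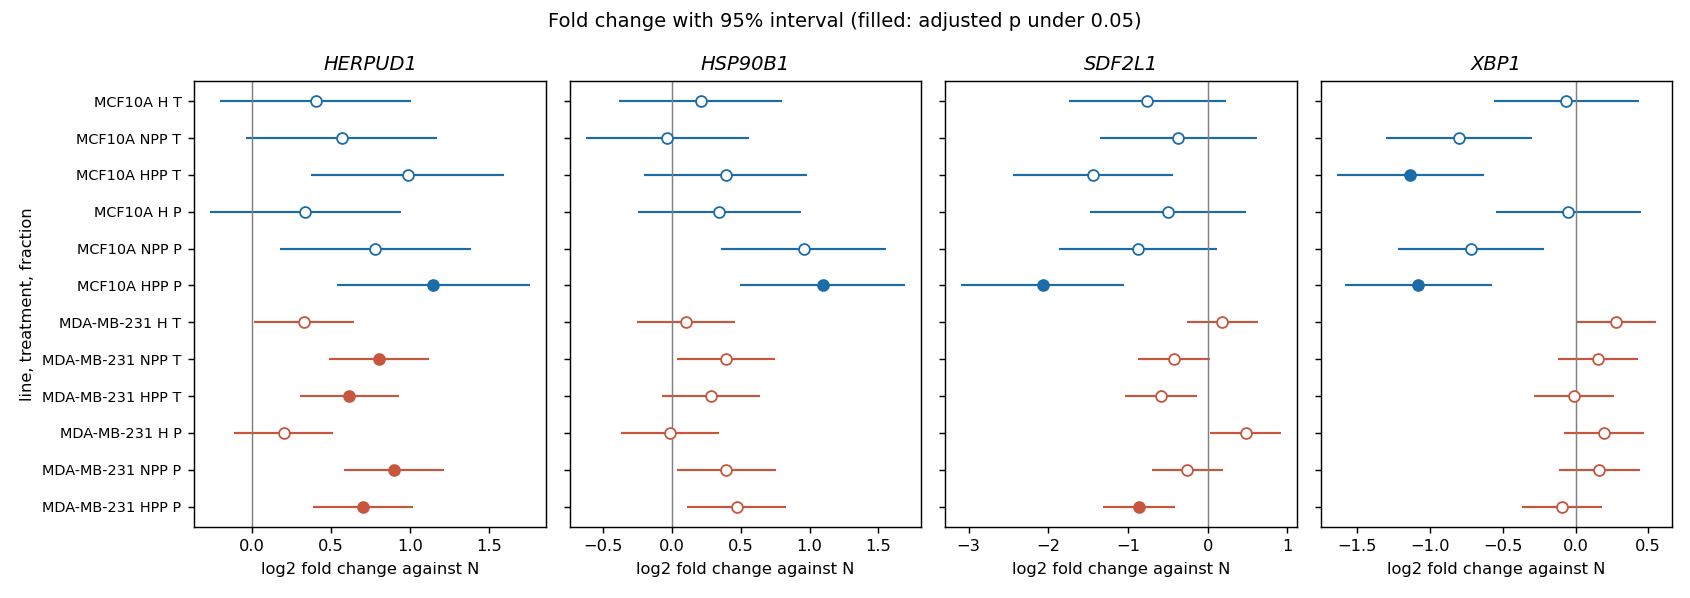
Log2 fold change against normoxia (x axis, scales differ between panels) with 95% interval for HERPUD1, HSP90B1, SDF2L1 and XBP1 under H, NPP and HPP in each line and fraction; filled points have an adjusted p below 0.05. HERPUD1 lies right of 0 under HPP in both lines, SDF2L1 left of 0, and XBP1 left of 0 in MCF10A with MDA-MB-231 near 0.

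Adding PP242 to hypoxic cells was read from HPP against H. In MCF10A XBP1 fell in total mRNA (73.1 and 81.8 CPM in H, 35.2 and 38.4 CPM in HPP; log2FC -1.07, SE 0.26, adjusted p = 0.0412) and in polysomal mRNA (99.1 and 90.8 against 46.6 and 46.2 CPM; -1.03, SE 0.26, adjusted p = 0.0362). It was 1 of 10 members in each fraction, against 3.74% and 6.5% of all genes. Both XBP1 calls were lost without any of their 4 libraries (adjusted p 0.161 to 0.290 in total and 0.0948 to 0.212 in polysomal mRNA). In MDA-MB-231 SDF2L1 fell on polysomes, from 17.9 and 23.6 CPM to 6.88 and 9.51 CPM (log2FC -1.34, SE 0.23, adjusted p = 0.00230), 1 of 10 against 11.5%. This SDF2L1 call held without each of its libraries, and its log2FC was -0.84 (adjusted p = 0.0106) with the length offset.

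No member was called for HPP against H in total mRNA of MDA-MB-231, where 3.78% of all genes were called. In edgeR 2 members had an unadjusted p under 0.05, against 2500 of 13510 genes. DESeq2 called 1, SDF2L1 (edgeR log2FC -0.77, adjusted p = 0.0775). With a replicate block, edgeR called SDF2L1 there too. The members there lay between -0.77 and 0.30 (CANX). In polysomal mRNA HERPUD1 had a log2FC of 0.50 in MDA-MB-231 (adjusted p = 0.0563) and 0.81 in MCF10A, and SDF2L1 one of -1.57 in MCF10A (adjusted p = 0.0975). A replicate block within each fraction called HERPUD1 in MDA-MB-231 (0.51, adjusted p = 0.0187) and SDF2L1 in MCF10A (-1.56, adjusted p = 0.00687). The remaining polysomal values lay between -0.29 (XBP1) and 0.49 (HSP90B1) in MDA-MB-231 and between -0.19 (DNAJB9) and 0.75 (HSP90B1) in MCF10A. In total mRNA of MCF10A the 9 members other than XBP1 lay between -0.68 (SDF2L1) and 0.58 (HERPUD1).

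Translational efficiency (Te) was taken as the polysomal log2FC minus the total log2FC and tested as an interaction. No member was called in any of the 6 Te comparisons. In MCF10A the shares of all genes called were 0%, 0% and 0% for H, NPP and HPP, and in MDA-MB-231 they were 0.0148%, 0.34% and 0.696%. HSP90B1 under NPP in MCF10A had the largest Te difference, 0.99 (unadjusted p = 0.0397, adjusted p = 0.990). Of all 13124 genes, 296 had an unadjusted p under 0.05 there. No other Te value of a member did in any comparison. DESeq2 called 0 in all 6. The HSP90B1 value was 0.63 without NPP total replicate 2 and 0.94 without N polysomal replicate 1, the libraries that stood apart. For HPP the Te difference of HERPUD1 was 0.16 (95% interval -0.69 to 1.01) in MCF10A and 0.09 (-0.36 to 0.53) in MDA-MB-231, that of SDF2L1 -0.63 (-2.03 to 0.76) and -0.28 (-0.91 to 0.36), and that of XBP1 0.06 (-0.65 to 0.76) and -0.08 (-0.48 to 0.31). A call in polysomal and not in total mRNA was therefore not shown to be a difference between the fractions.

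The lines were compared in normoxic total mRNA after scaling all 32 libraries together. In MDA-MB-231 5 members were lower than in MCF10A and none was called higher under TMM in the fit of all 32 libraries, against 40.7% of all genes called. PDIA4 was at 320 and 344 CPM in MCF10A and at 158 and 126 CPM in MDA-MB-231 (log2FC -1.22, SE 0.23, adjusted p = 0.000243), and SDF2L1 was at 38.3 and 41.2 against 12.7 and 15.5 CPM (-1.49, SE 0.41, adjusted p = 0.00534). XBP1 was at 110.97 and 79.6 against 62.6 and 60.02 CPM (-0.64, SE 0.20, adjusted p = 0.0156), HSP90B1 at 985 and 849 against 644 and 500 CPM (-0.68, SE 0.25, adjusted p = 0.0339), and HSPA5 at 659 and 640 against 500 and 377 CPM (-0.56, SE 0.22, adjusted p = 0.0456). None of these 5 overlapped between the lines. The same held for DNAJC3 and CANX, which were lower, and CALR, which was higher, though that fit called none of them. The share of all genes without overlap was not measured. With library totals in place of TMM, which weigh a library's composition differently, HSPA5 was at -0.22 (adjusted p = 0.403), HSP90B1 at -0.34 (0.429) and XBP1 at -0.30 (0.161), and these 3 calls were lost, while CALR, at 0.41 under TMM, was called higher in MDA-MB-231 (0.75, adjusted p = 4.78e-05). CALR was also called higher when only the compared libraries were fitted (0.49, adjusted p = 0.00625), and DNAJC3 lower in that fit (-0.88, adjusted p = 0.000893) and with a replicate block within each fraction (-0.75, adjusted p = 0.0399). With the length offset CALR was called higher (0.57, adjusted p = 0.00202), and DNAJC3 (-1.04, adjusted p = 0.00105) and CANX (-0.43, adjusted p = 0.0465) lower, beside the 5. PDIA4 kept its call under every alternative run, and SDF2L1 under all but the one without MDA-MB-231 N replicate 1 (-1.36, adjusted p = 0.0592). The XBP1 value was -0.38 (adjusted p = 0.242) without MCF10A N replicate 1, and its call was also lost without MDA-MB-231 N replicate 1 (0.0619) or 2 (0.0864). The HSPA5 and HSP90B1 calls were also lost without either MCF10A N library or without MDA-MB-231 N replicate 2.

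Whether the lines responded differently was tested directly, as the log2FC in MDA-MB-231 minus that in MCF10A, in the fit of all 32 libraries scaled together, so that a difference need not equal that of the values given above for each line. XBP1 under HPP in total mRNA was the 1 member called, at 1.21 (SE 0.29, 95% interval 0.65 to 1.77, adjusted p = 0.0205), against 3.31% of all genes. In polysomal mRNA the XBP1 difference was 0.96 (adjusted p = 0.0693) against 3.6% of all genes called. With a replicate block within each fraction 2 members were called there, XBP1 (0.94, adjusted p = 0.0391) and SDF2L1 (1.19, adjusted p = 0.0361), and XBP1 kept its call in total mRNA (1.22, adjusted p = 0.0111). For H the shares of all genes called were 0.266% in total and 0.329% in polysomal mRNA, and for NPP 0.056% and 0.126%, with no member among them. In edgeR the members with an unadjusted p under 0.05 numbered 0 for H in either fraction, 1 for NPP in each, and 3 for HPP in polysomal mRNA. DESeq2 called 1 of these, XBP1 under HPP in polysomal mRNA. Of all 14298 genes, 1068 in total and 928 in polysomal mRNA passed that threshold in edgeR for H. The numbers were 591 and 629 for NPP, and 2392 for HPP in polysomal mRNA. The XBP1 call in total mRNA was lost in 6 of the 8 fits that left out a library (0.95 to 1.43, adjusted p 0.0243 to 0.127).

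Markers of the lines moved with HPP in MCF10A. KRT14 rose in total mRNA (log2FC 2.37) and in polysomal mRNA (2.28), and VIM rose in total mRNA (1.73; 1933 and 2277 CPM in N, 4585 and 9370 CPM in HPP) but not on polysomes (-0.38, adjusted p = 0.605). KRT5 and ZEB1 were not called in either fraction. In MDA-MB-231 VIM rose in total mRNA (0.75), and the other marker genes tested there (CDH1, KRT14, TP63 and ZEB1) were not called. The part of these markers in the members' results was not tested.

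The wider folding and UPR machinery was read from lists of genes by role, here for polysomal mRNA under HPP against N. Of 12 further ER chaperones and cochaperones, 0 rose and 1 fell in MCF10A, and none was called in MDA-MB-231. In the latter edgeR gave 3 at an unadjusted p under 0.05, against 4598 of all 13510 tested genes. The one that fell was DNAJB11, another HSPA5 partner (log2FC -0.98, adjusted p = 0.0148). This list had a median of -0.16 for MCF10A, which was 0.10 under library totals, where the median of all genes was 0.15. For MDA-MB-231 it was 0.02, and -0.01 under RLE scaling. Counts with the length offset, here and for the lists below, are given without the share of all genes called under it. With that offset 2 rose and 1 fell in MCF10A, and 2 rose in MDA-MB-231, FKBP2 in both (0.79 and 0.64) with SDF2 (0.67) and DNAJC1 (0.44). These 3 genes, and TXNDC5 and SEC61G below, were named after their values were seen. Of 13 oxidative folding genes none fell, while 3 rose in the first line and 4 in the second. With the length offset TXNDC5 fell in each (-0.77, adjusted p = 0.0216, and -0.56, adjusted p = 0.0213), and 5 rose in the first line and 4 in the second. Of 9 genes of glycoprotein quality control, 2 rose in MCF10A (MAN1B1 1.09 and CLGN 0.96) and none was called in MDA-MB-231. In the latter 3 had an unadjusted p under 0.05, as did 4598 of all 13510 tested genes. The oxidative folding list had a median of 0.43 in MCF10A and 0.21 in MDA-MB-231, against -0.04 and 0.01 for all genes. The glycoprotein list had medians of 0.54 and 0.23. Of the lists below, the UPR sensors and factors had 0.36 and 0.34, and ER-associated degradation 0.07 and 0.19.

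ERO1A, the oxidase that recharges disulphide isomerases and a known hypoxia target, had the largest log2FC of the oxidative folding genes in MCF10A. Its polysomal libraries were at 75.5 and 105.6 CPM in N and at 363 and 392 CPM in HPP (log2FC 2.06, adjusted p = 0.00144). It rose by 1.89 under H (adjusted p = 0.0120) and had a log2FC of 0.26 under NPP. In MDA-MB-231 ERO1A rose by 0.69 on polysomes under HPP (191 and 175 against 306 and 285 CPM, adjusted p = 0.0029) and in total mRNA by 0.58 under H (adjusted p = 0.0470). Its polysomal log2FC under H there was 0.52 (adjusted p = 0.0586). The difference of the HPP response between the lines was -1.39 (adjusted p = 0.0194). In total mRNA ERO1A rose in MCF10A by 1.56 under H (adjusted p = 0.0315) and by 1.50 under HPP (adjusted p = 0.0090), and in MDA-MB-231 by 0.58 under HPP (adjusted p = 0.0111). HPP against H gave between -0.06 and 0.17, Te between -0.07 and 0.60, and P against T in N 0.02 and 0.11, with no call. NPP gave -0.34 in total mRNA of MCF10A, and -0.01 in total and 0.11 in polysomal mRNA of MDA-MB-231, and the lines differed in N by 0.46 (adjusted p = 0.117), none called. The other differences in response between the lines were not called either, at -0.92 in T and -1.45 in P for H (adjusted p = 0.409 and 0.0631), 0.39 and -0.12 for NPP, and -0.81 for HPP in T (adjusted p = 0.214). QSOX1, another thiol oxidase, rose by 2.02 and 0.51 in the lines. ERO1B had the largest log2FC of the called oxidative folding genes in MDA-MB-231 under HPP on polysomes (0.98, adjusted p = 0.0031).

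The PERK arm held the largest log2FC of these lists in each line. In MCF10A 2 of the 10 genes of this arm rose and none fell. Of the same 10, MDA-MB-231 had 2 higher and 1 lower. PPP1R15A (GADD34), which directs the dephosphorylation of eIF2α, was at 34.1 and 22.4 CPM in N and at 313 and 331 CPM in HPP on MCF10A polysomes (log2FC 3.51, adjusted p = 0.000103), and at 201 and 371 against 941 and 833 CPM in MDA-MB-231 (1.63, adjusted p = 0.0047). DDIT3 (CHOP) rose by 3.20 in MCF10A (9.18 and 4.59 against 75.4 and 50.5 CPM, adjusted p = 0.00217), and ATF3 by 1.42 in MDA-MB-231 (adjusted p = 0.00255). SESN2, a stress-induced regulator of mTORC1, fell by 0.67 in MDA-MB-231. The responses of DDIT3 and PPP1R15A differed between the lines (MDA-MB-231 minus MCF10A) by -3.08 (adjusted p = 0.00357) and -1.91 (adjusted p = 0.0281) on the log2 scale.

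Among UPR sensors and factors, 1 of 9 rose in MCF10A (ATF6B, 0.95) and 3 of 9 in MDA-MB-231, where ERN1 (IRE1) rose by 1.11 (adjusted p = 0.0043), EIF2AK3 (PERK) by 0.65 and ATF6B by 0.40. In ER-associated degradation, 1 of 14 rose (OS9, 1.28) and 1 fell (UBE2J1) in MCF10A, and 4 of 15 rose in MDA-MB-231, among them SEL1L (0.68), SYVN1 (0.65) and HERPUD2 (0.56). SEL1L and SYVN1 form the core of the ligase complex that HERPUD1 joins. The share of genes called in these lists was 8.33% of the chaperones, 23.1% of the oxidative folding, 22.2% of the glycoprotein, 14.3% of the degradation, 11.1% of the sensor and 20% of the PERK genes in MCF10A, where 22.2% of all genes were called. For the cancer line, with 19.4% of all genes called, these lists gave 0%, 30.8%, 0%, 26.7%, 33.3% and 30%. These shares are from the fit without the length offset and are no background for the counts that follow. With the length offset the degradation list had 3 higher and 1 lower in MCF10A and 4 higher in MDA-MB-231, the sensors 2 and 4 higher, the glycoprotein list 4 and 0 higher, and the PERK arm 3 higher and 1 lower in MCF10A and 2 each way in MDA-MB-231.

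The translocon and signal peptidase genes bring proteins into the ER. None of the 13 rose, while 4 fell in MCF10A (30.8%) and 3 in MDA-MB-231 (23.1%), against 22.2% and 19.4% of all genes called (under library totals 1 rose and 2 fell in the latter). SSR4, a subunit of the translocon-associated complex, was at 414 and 173 CPM in N and at 94.6 and 60.8 CPM in HPP on MCF10A polysomes (log2FC -1.92, adjusted p = 0.0302) and at 229 and 175 against 87.9 and 107.5 CPM in MDA-MB-231 (-1.05, adjusted p = 0.00166). SEC61B, a channel subunit, fell by 0.99 in MDA-MB-231. The SSR4 and SEC61B transcripts (608 and 564 bases) are among the short ones, whose median is given above. With the length offset SSR4 was at -1.05 in MCF10A (adjusted p = 0.0019) and -0.65 in MDA-MB-231 (adjusted p = 0.00093). SEC61B was at -0.57 in MDA-MB-231 (adjusted p = 0.0017). With the length offset 6 of the list fell and 1 rose in MCF10A, and 4 fell and 1 rose in the cancer line. The riser in each was SEC61G, another channel subunit (1.14 and 0.81). The list median moved from -1.04 to -0.50 in MCF10A and from -0.25 to -0.23 in MDA-MB-231, and with the offset it was -0.06 and 0.07 in total mRNA. The cytosolic chaperones, taken as a list outside the ER, had 8 of 16 lower in MCF10A and 3 lower and 1 higher in MDA-MB-231 (10 and 4 lower with the offset, none higher). HSPA8, the constitutive cytosolic Hsp70, was at 1310 and 2513 CPM in N and at 493 and 406 CPM in HPP on MCF10A polysomes (-2.09, adjusted p = 0.00732), and fell by 1.07 in MDA-MB-231 (adjusted p = 0.00269).

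**Figure D5:**
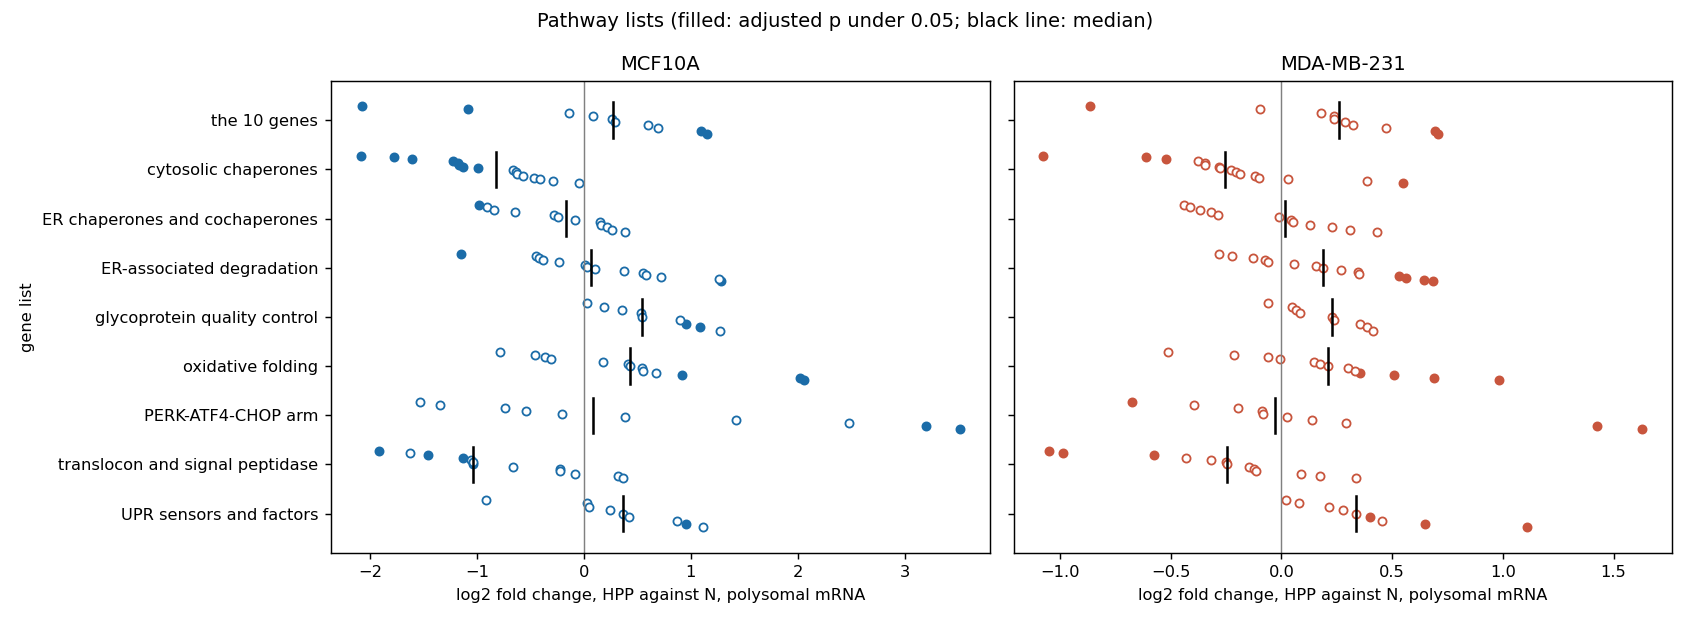
Polysomal log2 fold change of HPP against normoxia (x axis, scales differ between panels) for each gene of the members and the pathway lists (rows) in each line; filled points have an adjusted p below 0.05 and the black line is the list median. The translocon and cytosolic chaperone medians lie left of 0 (-1.04 and -0.83 in MCF10A, -0.25 for each in MDA-MB-231). The MCF10A translocon median is -0.50 with the length offset. The oxidative folding (0.43 and 0.21), glycoprotein (0.54 and 0.23) and UPR sensor (0.36 and 0.34) medians lie right of 0 in MCF10A and MDA-MB-231.

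The 10 genes did not vary as a single block over the libraries. Pearson's r of log2 CPM over the 16 libraries of a line, given as a description because these libraries share treatments, cultures and composition, had a median over the 45 pairs of 0.22 in MCF10A (-0.77 to 0.87) and 0.54 in MDA-MB-231 (-0.80 to 0.85). By the mean of both lines, HSPA5 and PDIA4 were the most alike (0.87 and 0.78), and SDF2L1 and CANX the least (-0.77 and -0.80). In MDA-MB-231 alone HSPA5 and DNAJB9 had the highest r (0.85). SDF2L1 also ran against HSP90B1 (-0.64 and -0.66) and HERPUD1 (-0.58 and -0.61). Over 12373 genes, those whose pattern was most like HSPA5 by mean r over the lines were C1GALT1C1 (0.86), MFAP1 (0.86), UXS1 (0.85), MINPP1 (0.84) and ERP44 (0.83). Those most like HERPUD1 were PSAP (0.91), GRN (0.90), ILVBL (0.89), GLB1 (0.89) and FBXO8 (0.89).

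Counts assigned to pseudogenes of HSP90B1 and XBP1 were small beside those of the members. Reads shared between genes were not measured. The pseudogenes HSP90B2P and HSP90B3P had at most 0.219% and 0.0666% of the HSP90B1 count in a library, and XBP1P1 at most 0.249% of the XBP1 count. DNAJC3-AS1, a long non-coding RNA named as antisense to DNAJC3, reached 7.18% of the DNAJC3 count. Its overlap with DNAJC3 was not measured, and whether the libraries kept strand is not stated. DNAJC3 reads may therefore include some of this RNA.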

How the data were processed

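Total and polysomal RNA of 2 cell lines was sequenced by the authors as paired reads (TruSeq RNA v2), aligned with STAR and counted with RSEM, and deposited in the unit of expected counts per gene, 1 table per line. The submitters' labels name GRCh37 and the study's methods GRCh38, so no coordinate was taken from these tables. Members and lists were chosen with earlier results of these data known.

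Here protein-coding rows were rounded to whole counts, filtered with filterByExpr (13124 genes in MCF10A, 13510 in MDA-MB-231, 14298 for both), scaled by TMM and tested with edgeR 4.0.16 (limma 3.58.1, R 4.3.3) by quasi-likelihood, all 16 libraries of a line in 1 fit, or all 32 for line comparisons. The p-values were adjusted by Benjamini-Hochberg over all tested genes, and calls made at 0.05. SE was the log2FC over the root of F. Intervals were 1.96 SE, a normal approximation that is somewhat narrow with 2 libraries per group. CPM were scaled by TMM within a line, or over both lines where lines or label markers are compared. Alternatives were DESeq2 1.42.0, RLE scaling, library totals, no filter, fits of the compared libraries alone, replicate and culture blocks, leaving out each library and, chosen after seeing the data, a transcript length offset and a crossed pairing. Shares of all genes called are from the fit without any of these, so calls under an alternative stand without a background share. All 10 members are given in every comparison, by value, range or count. Of each list up to 3 called genes per line are named for HPP on polysomes, not always those of largest log2FC. ERO1A is given in every comparison, and some genes are named for the length offset besides. Reference transcripts and gene spans are from GENCODE v44 (99.6% and 99.5% of tested genes had a length). Promoters are from RefSeq, and no protein sequence was used here.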

Additional observations from a re-analysis of the deposited data

Results flagged for a closer look

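XBP1 under HPP in total mRNA stood out because its response differed between the lines by a direct test of the difference. The log2FC in MDA-MB-231 minus that in MCF10A was 1.21 (adjusted p = 0.0205, edgeR) in a fit of all 32 libraries scaled together, with 2 libraries per group. The separate fits of each line, with a scaling of their own, gave a log2FC of -0.01 in MDA-MB-231 and -1.14 in MCF10A. Both HPP libraries lay below both N libraries in MCF10A, and the difference was not called with RLE scaling (1.07, adjusted p = 0.0639). No group had the 4 samples needed to look for a single outlying sample.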

How the results depend on the processing

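Of the 310 results (10 genes in 31 comparisons), 20 were called, and none of these changed direction under any alternative run. All 20 kept their call with a replicate block and with the transcript length offset, 19 with DESeq2, 17 with library totals, 16 without the filter on low counts, 14 with RLE scaling and 12 when only the compared libraries were fitted. Leaving out 1 library at a time kept 28 of 84 calls, with fewer samples in each fit. The numbers of members called that changed were as follows, with the value as reported first. With DESeq2, HPP against N in T went from 1 to 3 in both lines, HPP against H in P from 1 to 2 in both lines, NPP against N in P of MCF10A from 0 to 1, and in MDA-MB-231 HPP against H in T from 0 to 1 and P against T in N from 0 to 2, while the line difference for HPP in P went from 0 to 1 and the lines in N from 5 to 4. With RLE scaling, HPP against H in T of MCF10A went from 1 to 0, HPP against N in T of MDA-MB-231 from 1 to 2, its polysomal counterpart from 3 to 2, the lines in N from 5 to 2, and the line difference for HPP in T from 1 to 0. With library totals, which moved the median log2FC of all genes to between -0.26 and 0.49, MCF10A gave 3 in place of 1 for HPP against N in T, 5 in place of 4 for the same in P and 2 in place of 1 for HPP against H in P. MDA-MB-231 gave 2 in place of 1 for HPP against N in T, 5 in place of 3 for the same in P and 3 in place of 1 for HPP against H in P, and the lines in N went from 5 to 3 and the line difference for HPP in P from 0 to 1. Without the filter, MCF10A had 0 in place of 1 for HPP against H in T and in P, MDA-MB-231 had 3 in place of 1 for HPP against N in T, 1 in place of 0 for HPP against H in T, 2 in place of 1 for NPP against N in P, 4 in place of 3 for HPP against N in P and 3 in place of 1 for HPP against H in P, and the lines in N differed in 3 members in place of 5. With only the compared libraries, MCF10A had 0 in place of 1 for HPP against H in T and in P and 1 in place of 4 for HPP against N in P, MDA-MB-231 had 0 in place of 1 for NPP against N in T and 2 in place of 1 for HPP against N in T, the lines in N differed in 7 members in place of 5, and the line difference for HPP in T went from 1 to 0. With the transcript length offset, chosen after seeing the data, MCF10A had 1 in place of 0 for NPP against N in T, 4 in place of 1 for HPP against N in T, 5 in place of 4 for the same in P, and 2 in place of 1 for HPP against H in T and in P. MDA-MB-231 had 3 in place of 1 for HPP against N in T, 4 in place of 3 for the same in P and 2 in place of 0 for P against T in N, the lines in N differed in 8 members in place of 5, and the line differences for HPP were 2 in place of 1 in T and 2 in place of 0 in P. Beyond what each alternative changes by construction, the cause was not tested.

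Replicate numbers were not taken as pairs throughout, because the labels tie them to no shared day or batch. Deviations of same-numbered libraries correlated in all 6 comparisons of total libraries in MCF10A (0.283 to 0.778), but between -0.10 and 0.635 among its polysomal libraries and down to -0.641 between T and P of other treatments, and between -0.187 and 0.348 in MDA-MB-231. With a replicate block, calls for HPP against N in T of MDA-MB-231 went from 1 to 3, HPP against N in P from 3 to 4, HPP against H in T from 0 to 1 and HPP against H in P from 1 to 2. A replicate block within each fraction gave the same 4 numbers there, and in MCF10A 4 in place of 1 for HPP against N in T, 1 in place of 0 for NPP against N in P and 2 in place of 1 for HPP against H in P, with 6 in place of 5 for the lines in N and 2 in place of 0 for the line difference for HPP in P. A block for the culture that T and P share left Te and P against T at 0. A crossed pairing, added after seeing the data, was run for P against T in N of MCF10A and for HPP against H in T of MDA-MB-231, and both stayed at 0.

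Leaving out 1 library gave 0 to 1 members for HPP against N in T of MCF10A, 0 to 0 for HPP against H in T and in P, and 0 to 2 for HPP against N in P. In MDA-MB-231 it gave 0 to 0 for NPP against N in T, 0 to 1 for HPP against N in T, HPP against H in T and NPP against N in P, 0 to 3 for HPP against N in P and 1 to 2 for HPP against H in P. The lines in N differed in 2 to 3 members, and the line difference gave 0 to 1 for NPP in T and for HPP in T and P. The remaining comparisons stayed at 0. The lowest count of a member in a library was 235 (SDF2L1), and 2 cultures per group limit the precision of every value.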
